A study of Bos taurus with 34 samples.

Results

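The genes described here encode carriers that move amino acids and related compounds across membranes. They were chosen by symbol, as every gene of the solute carrier families SLC1, SLC3, SLC6, SLC7, SLC36, SLC38 and SLC43 in the deposited tables. The blastocyst table held 55 of them among 18442 genes, and the morula table held 38 among 14878 genes, all 38 of which were also in the blastocyst table. The embryos were bovine preimplantation embryos sequenced singly, and the series title names a deletion of CSF2RA, which encodes the subunit that binds the cytokine CSF2 in its receptor. The sample titles call the same embryos CSF2KO, which names the ligand. There were 9 knockout blastocysts (2 males and 7 females), 17 control blastocysts (9 males and 8 females), 4 knockout morulae (1 male and 3 females) and 4 control morulae (3 males and 1 female). The labels of knockouts and controls alike give a treatment with recombinant Wnt5A and growth in vitro, where the title speaks of development in utero and the design text of production in vivo. What the controls were, how the deletion was made and which cells carry it are not given in the sources used here.

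Preimplantation embryos take up amino acids from tubal and uterine fluid for protein synthesis, for volume control and as a signal to the kinase complex mTORC1. SLC7 light chains such as SLC7A5 work only as heterodimers with a heavy chain, SLC3A2 or SLC3A1, and exchange large neutral or basic amino acids, while SLC38 and SLC6 carriers use the sodium gradient to concentrate their substrates. SLC1 carriers take up glutamate, aspartate or small neutral amino acids. Not every family member carries amino acids: SLC6A8 carries creatine, and SLC43A3 carries purine bases.

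The libraries set what could be read. Reads in genes numbered 44879 to 988622 in knockout blastocysts and 115512 to 17598170 in control blastocysts, and 43679 to 124603 in knockout morulae and 93980 to 1526852 in control morulae. Control blastocyst 12 had reads in 2791 genes, where the other controls had at least 8667, and knockout morulae 21 and 49 had reads in 4392 and 4956 genes, where the other knockout morulae had 7859 and 8417. Knockout blastocyst 57 had the fewest reads of the blastocysts, 44879, in 7066 genes, where the other knockout blastocysts had at least 8902. It was left out together with control 12 in some results below. CSF2RA itself had 2 reads over the 9 knockout blastocysts and 2 over the 17 controls, so the knockout could not be checked on its own transcript at this depth, and it was not analysed in morulae. The summed RPKM of 8 embryo markers (CDX2, GATA3, TFAP2C, KRT8, KRT18, POU5F1, NANOG and GATA6) was 2362 to 4524 in knockout blastocysts and 86.3 to 6601 in control blastocysts, where the lowest value was that of control 12. In morulae it was 68.7 to 1622 in knockouts and 2670 to 3367 in controls. KRT18 and KRT8 made up most of the sum, with medians of 1930 and 986 RPKM in control morulae, where the summed median was 3074 RPKM. Only KRT18 and KRT8 did not overlap between genotypes in morulae, and the other markers did overlap. All 8 markers had a fitted change below 0 in morulae, where 30.8% of all genes tested were above 0. For POU5F1, however, the mean was 94.1 RPKM in knockouts and 82.5 RPKM in controls. The part of the markers in the transporter results of morulae was not tested. In whole embryos, fewer cells of a type and less RNA per cell cannot be told apart.

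Many transporters had few reads. Of the 55 in blastocysts, 47 had a read in some knockout, 54 in some control and 46 in both, where 85.6% of all genes were read in both genotypes. SLC7A2, a carrier of basic amino acids, had 2 reads, both in knockouts, and 8 others were read in controls only. The 17 transporters that only the blastocyst table held had 2 to 16 reads each over all 26 blastocysts. Among them were SLC7A11, the cystine carrier, with 1 read in knockouts and 3 in controls, SLC38A1 with 3 reads in knockouts and 1 in controls, and SLC36A4 with 3 in knockouts and 13 in controls. In all, 26 of the 55 had fewer than 30 reads over all blastocysts.

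Only genes with at least 1 RPKM in at least 9 blastocysts, or in at least 4 morulae, were tested. RPKM scale reads by library size and by gene length, here the length of the whole gene, introns included. In blastocysts 13 of 55 transporters (23.6%) passed, against 34.1% of all genes. In morulae 13 of 38 (34.2%) passed, against 33.7% of all genes. They were the same 13 genes at both stages. These 13 held 117397 of the 125804 transporter reads in blastocysts (93.3%) and 8855 of 9463 in morulae (93.6%). SLC7A4 held 42.5% of transporter reads in knockout blastocysts and 40.9% in control blastocysts, followed in both by SLC1A1 with 15.0% and 15.7%. In knockout morulae SLC7A5 held 19.9%, SLC7A4 19.6% and SLC1A1 12.7% of transporter reads. Of the 130 knockout reads of SLC7A5, 88 came from knockout 1. In knockouts 5, 21 and 49 SLC7A4 had at least as many reads as SLC7A5. In control morulae SLC7A4 held 32.9%, SLC1A1 19.8%, SLC6A8 9.54% and SLC7A5 8.74% of transporter reads.

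More transporters were read in deeper libraries. Of the 55 genes, knockout blastocysts had reads in 20 to 35 (median 27) and control blastocysts in 3 to 47 (median 32), the lowest being control 12 with SLC1A1, SLC7A7 and SLC38A10. Leaving out control 12, the controls had 20 to 47. Of the 38 genes, knockout morulae had reads in 12 to 20 (median 15) and control morulae in 22 to 36 (median 26.5), with no overlap. Brought to the depth of the shallowest library, 43679 reads, the expected number of the 38 transporters read was 16.7 to 21.8 in knockout blastocysts and 16.4 to 20.5 in control blastocysts other than control 12. At that depth it was 8.44 to 15.0 in knockout morulae and 17.2 to 19.6 in control morulae, which still did not overlap. The expected number of all genes at that depth was 3095 to 6893 in knockout morulae and 6359 to 7182 in control morulae. Knockout 1, with 6893 genes, lay inside the range of the controls, and its expected number of transporters was 14.3. That is 1 embryo, and the part of the number of all genes in the transporter numbers was not tested.

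**Figure D1:**
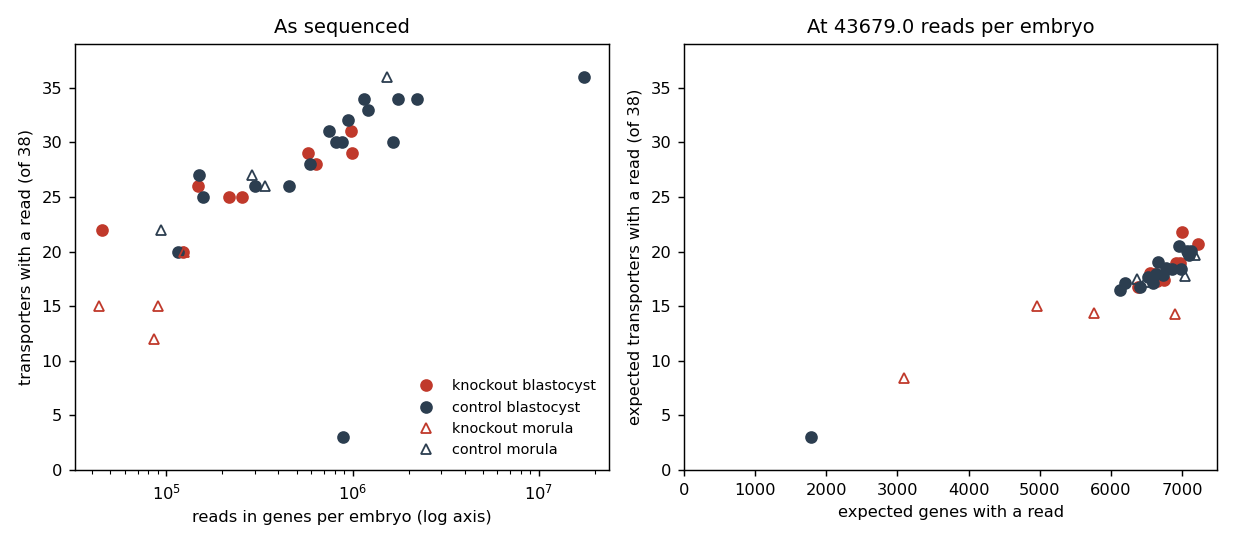
Transporters with a read per embryo, of the 38 in both tables, against reads in genes per embryo on a log axis (left), and the number expected at 43679 reads against the number of all genes expected at that depth (right). Each mark is 1 embryo: red knockout, dark control, filled circles blastocysts, open triangles morulae. At matched depth the knockout morulae lie below all other embryos except control blastocyst 12, which shows 3 transporters.

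Of the 38 transporters in the morula table, 24 were read in both genotypes, against 71.3% of all genes. The other 14 were listed at 0 in all 4 knockout morulae and read in at least 1 control. With 344068 reads over the 4 knockouts, a count of 0 allows up to 3 reads, or 8.72 CPM (reads scaled to a common library size), which covers counting error only. For 11 of the 14 the controls lay below that limit, so a difference was not detectable at this depth. The other 3 were SLC7A1, SLC7A6 and SLC36A1. SLC7A6, a light chain that exchanges basic for neutral amino acids, had 34 reads in controls, 15.1 CPM, of which 29 came from control 39, and without it the controls were at 6.92 CPM. SLC36A1, a proton-coupled carrier of the lysosome, had 26 reads in 3 controls, 11.6 CPM, of which 22 came from control 39, and the value without it was 5.54 CPM. SLC7A1, the main carrier of arginine and lysine, had 44 reads in controls, 19.6 CPM, of which 43 came from control 39, and without it 1.38 CPM. Leaving out control 39, chosen after seeing the data, thus put all 3 below the limit as well. In blastocysts 8 transporters were listed at 0 in all knockouts, and all 8 lay below the limit of 0.757 CPM in the controls.

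SLC7A4 had the highest median RPKM of all 13 tested transporters in both genotypes at both stages. It is related to the carriers of basic amino acids, but its own substrate is not established. In control blastocysts the order by median RPKM was SLC7A4, SLC6A8, SLC7A5, SLC1A1, SLC38A2, SLC3A2, SLC38A7, SLC43A1, SLC6A20 and SLC7A8. In control morulae it was SLC7A4, SLC6A8, SLC7A5, SLC38A2, SLC1A1, SLC38A7, SLC3A2, SLC7A8, SLC43A1 and SLC1A5, and 9 of 10 names were shared. In control morulae SLC7A4 lay above the range of SLC6A8, SLC6A8 above that of SLC7A5, and SLC7A8 above that of SLC43A1. All other neighbours in these 2 orders overlapped in range, which in blastocysts includes SLC7A4 and SLC6A8 because control 12 was at 0. RPKM per kilobase of the whole gene favours compact genes: SLC7A4 spans 6283 bases on chromosome 17 (72369764 to 72376047, ARS-UCD1.2) and SLC6A8 spans 7577 bases on chromosome X (36914289 to 36921866), while SLC6A20 spans 80098 bases on chromosome 22 and SLC1A1 spans 74929 bases on chromosome 8. By reads alone SLC1A1 came second in knockout and control blastocysts and in control morulae, and came after SLC7A5 and SLC7A4 in knockout morulae. SLC7A4 shares 2489 bases with P2RX6, a gene with 1 read in knockout and 4 reads in control blastocysts. SLC6A20 shares 411 bases with LZTFL1, which had 2 reads in knockout and 15 in control morulae.

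The comparison of knockout with control blastocysts asks which transporters differ in RNA level with the genotype at this stage. None of the 13 tested transporters was called at an adjusted p under 0.05 (limma with Benjamini-Hochberg adjustment over 6283 genes, sex as a term), against 0% of all genes. None was under 0.05 unadjusted, against 2.75% of all genes. The fitted log2 change, knockout minus control on the log2(RPKM + 1) scale, was above 0 for 10 of 13, against 62.3% of all genes, with a median of 0.14 against 0.083 for all genes. Without control 12 and knockout 57 it was above 0 for 4 of 13, with a median of −0.047.

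Of the heterodimers, SLC7A5, the light chain of the carrier LAT1 for leucine and other large neutral amino acids, had 9.77 to 22.7 RPKM (median 15.1) in knockout blastocysts. Control blastocysts other than control 12, which was at 0, had 6.93 to 18.9 RPKM, and the median of all 17 was 12.2. The groups overlapped widely, with a log2 change of 0.57 ± 0.36 (SE, limma p = 0.125, adjusted p = 0.994), or 0.22 without control 12 and knockout 57. Its heavy chain SLC3A2 had 1.802 to 8.003 RPKM (median 4.598) in knockouts and up to 6.87 RPKM (median 4.66) in controls, a change of 0.082 ± 0.28. The other tested light chain, SLC7A8 of LAT2, had a median of 1.89 RPKM in knockouts and 1.83 RPKM in controls. Over 24 blastocysts without those 2 libraries, SLC3A2 and SLC7A5 had a Pearson r of 0.283 (permutation p = 0.180, adjusted over 6 relations 0.515) and a Spearman rho of 0.272 (permutation p = 0.198), and 28.9% of all tested genes had a higher r with SLC3A2. In the 8 knockouts r was 0.768 (exact permutation p = 0.0265, adjusted p = 0.159), rho was 0.500 (exact permutation p = 0.216), and r was 0.386 without the 2 embryos farthest from the median. In the 16 controls r was 0.0445 (permutation p = 0.871, adjusted p = 0.871) and rho 0.0824 (permutation p = 0.764); the difference between genotypes was not tested. For SLC3A2 and SLC7A8 over the 24, r was 0.0850 (permutation p = 0.690, adjusted p = 0.871) and rho 0.0470 (permutation p = 0.828). Within genotypes r was 0.456 in the 8 knockouts (exact permutation p = 0.258, adjusted p = 0.515) and −0.0535 in the 16 controls (permutation p = 0.843, adjusted p = 0.871). Over the 24, without the 2 embryos farthest from the median, r was 0.234 for SLC7A5 and 0.191 for SLC7A8. With all 26 embryos r was 0.753 for SLC7A5, and 0.172 without the 2 farthest.

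Among the SLC6 carriers, SLC6A8 had the smallest p of the 13. Knockout blastocysts had 14.7 to 48.1 RPKM (median 29.3), and controls other than control 12, at 0, had 5.53 to 60.0 RPKM, with a median of 16.5 over all 17. The highest value of all was that of a control, number 46. The log2 change was 0.81 ± 0.48 (95% interval −0.17 to 1.79, limma p = 0.101, adjusted p = 0.994), and 0.34 without control 12 and knockout 57. SLC6A20, the carrier of proline and other imino acids that is known from mouse embryos, had 0.409 to 2.41 RPKM (median 1.03) in knockouts and up to 3.25 RPKM (median 2.03) in controls, a change of −0.16 ± 0.20. Among the SLC1 carriers, SLC1A1, a glutamate and aspartate carrier, had 4.63 to 11.9 RPKM (median 6.57) in knockouts and 3.85 to 11.7 RPKM (median 8.91) in controls, a change of −0.12 ± 0.21. It was the only tested transporter with reads in control 12. SLC1A5, the glutamine carrier ASCT2, had 0.768 to 2.90 RPKM (median 1.13) in knockouts and 0 to 2.01 RPKM (median 1.21) in controls, a change of 0.23 ± 0.21.

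SLC7A4 had 111 to 390 RPKM (median 286) in knockout blastocysts. Control blastocysts other than control 12, at 0, had 181 to 522 RPKM, with a median of 273 over all 17. The fitted change of 0.53 ± 0.68 was −0.047 without control 12 and knockout 57, which were the lowest embryos of their groups. SLC38A2, the system A carrier SNAT2 of small neutral amino acids, had medians of 7.01 RPKM in knockouts and 7.10 RPKM in controls. SLC38A7, a glutamine carrier of the lysosome, had medians of 3.73 RPKM in knockouts and 4.53 RPKM in controls. The 3 SLC43 genes had median RPKM of 2.88 in knockouts and 2.71 in controls (SLC43A1, or LAT3), 1.62 and 1.41 (SLC43A2, or LAT4), and 0.866 and 1.35 (SLC43A3), and their changes ran from −0.066 to 0.26. SLC43A1 and SLC43A2 are facilitated carriers of branched-chain amino acids, and the 95% intervals of their changes were −0.20 to 0.72 and −0.24 to 0.52.

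**Figure D2:**
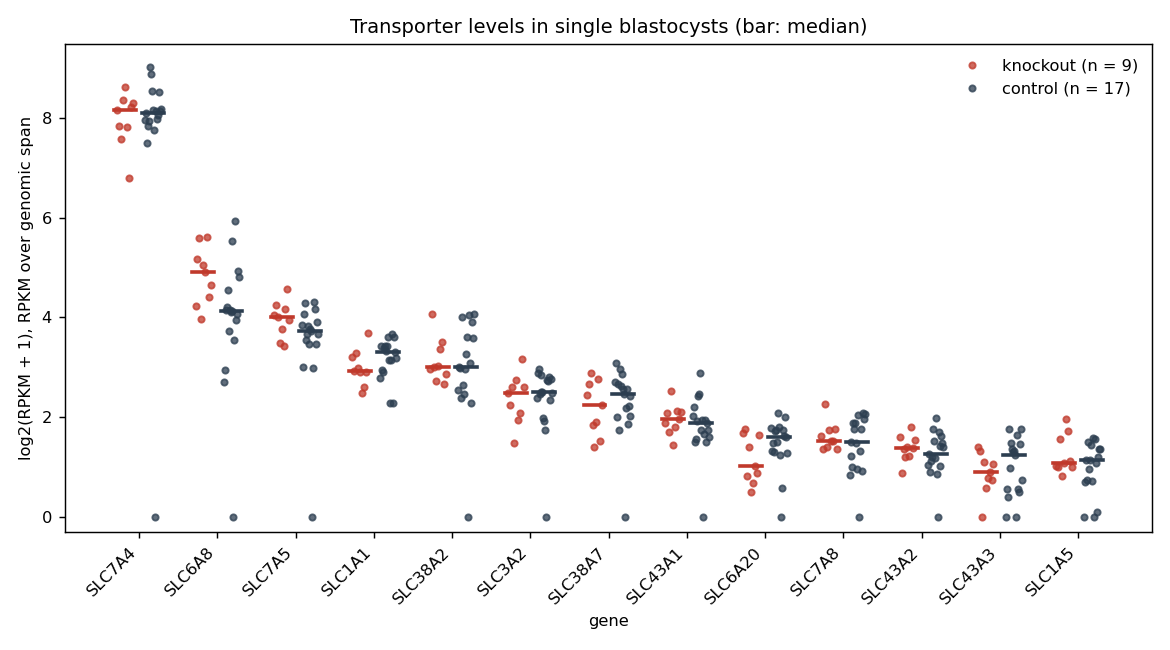
Level of the 13 tested transporters in each blastocyst as log2(RPKM + 1), with 9 knockouts in red left of 17 controls in dark; bars are medians. Genes are ordered by their median in controls. The groups overlap for each gene, and the controls at 0 on the line of most genes are control 12.

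Without the filter, 2 of 55 transporters in blastocysts were under 0.05 unadjusted, against 2.93% of all genes, and none was called. SLC7A1 had 38 reads in 7 of 9 knockouts (9.59 CPM pooled) and 146 reads in 13 of 17 controls (4.62 CPM), with a change of 0.17 ± 0.057 (limma p = 0.00782, adjusted p = 0.885). SLC6A9, a glycine carrier, had 14 reads in 5 knockouts (3.53 CPM) and 27 in 8 controls (0.854 CPM), with a change of 0.13 ± 0.056 (limma p = 0.0325, adjusted p = 0.885). The other untested transporters with the most reads were SLC38A10 (33.8 CPM in knockouts and 36.2 CPM in controls), SLC7A7, a light chain for basic amino acids (27.7 CPM in knockouts and 32.5 CPM in controls), SLC1A3 (26.7 CPM in knockouts and 29.0 CPM in controls) and SLC38A9, the arginine sensor of the lysosome (24.5 CPM in knockouts and 28.9 CPM in controls). Control 12 gave 274 of the control reads of SLC38A10 and 232 of those of SLC7A7. Without it and knockout 57, SLC38A10 was at 33.2 CPM in knockouts and 28.4 CPM in controls, and SLC7A7 at 28.1 CPM in knockouts and 25.9 CPM in controls.

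Knockout and control morulae were compared in the same way, 4 against 4. None of the 13 tested transporters was called at an adjusted p under 0.05 (limma, over 5021 genes, sex as a term), against 0% of all genes. Under 0.05 unadjusted were 2 of 13, against 6.87% of all genes, and both were lower in knockouts, against 5.97% of all genes. The log2 change was above 0 for 5 of 13, against 30.8% of all genes, and its median was −0.31 against −0.34 for all genes. In 3 of 13 every knockout lay below every control, against 7.91% of all genes tested. These were SLC7A4, SLC6A20 and SLC1A1, which are described first. SLC6A20 passed the filter only through the 4 controls, so its lack of overlap followed from the filter.

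SLC7A4 had 65.1, 85.4, 12.2 and 32.2 RPKM in knockout morulae 1, 5, 21 and 49, against 170, 224, 132 and 260 RPKM in control morulae 39, 41, 54 and 73. The highest knockout was below the lowest control, and the lowest knockouts were 21 and 49, with 3 and 9 reads of this gene. The log2 change was −2.17 ± 0.77 (95% interval −3.91 to −0.44, limma p = 0.0193, adjusted p = 0.587), and the exact permutation p was 0.0286, the smallest that 4 against 4 allows when sex is ignored. Within males, knockout 1 had 65.1 RPKM and the 3 controls had 132 to 224 RPKM. Within females, the 3 knockouts had 12.2 to 85.4 RPKM and the only control, 73, had 260 RPKM. Without knockouts 21 and 49 the change was −1.47 (limma p = 0.00628, adjusted p = 0.240), and without control 73 it was −1.38 (limma p = 0.253). Knockout 1, whose number of genes at matched depth was within the range of the controls, was below all 4 controls, from 51 reads of SLC7A4. That is 1 embryo, and the part of the number of genes read in these low values was not tested.

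SLC6A20 had 0.601, 0.206, 0 and 0.562 RPKM in knockouts 1, 5, 21 and 49, from 6, 2, 0 and 2 reads, against 1.21, 1.23, 2.08 and 1.54 RPKM in controls 39, 41, 54 and 73. No knockout reached the lowest control. Only the 4 controls had at least 1 RPKM, so the gene passed the filter through them alone and this separation followed from the filter. The p-values of SLC6A20 are therefore no separate support for a difference. The log2 change was −0.83 ± 0.34 (95% interval −1.59 to −0.077, limma p = 0.0341, adjusted p = 0.675, exact permutation p = 0.0286), and after quantile scaling it was −0.16 (limma p = 0.612). The filter left it out under median ratio scaling.

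SLC1A1 had 3.64, 3.19, 3.06 and 3.30 RPKM in knockouts 1, 5, 21 and 49, against 9.87, 7.20, 4.93 and 7.56 RPKM in controls 39, 41, 54 and 73. The 4 knockouts lay close together and below every control, from 9 to 34 reads each. The log2 change was −0.92 ± 0.61 (95% interval −2.28 to 0.45, limma p = 0.166, adjusted p = 0.853, exact permutation p = 0.0286). The interval of the fit with sex as a term included 0.

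**Figure D3:**
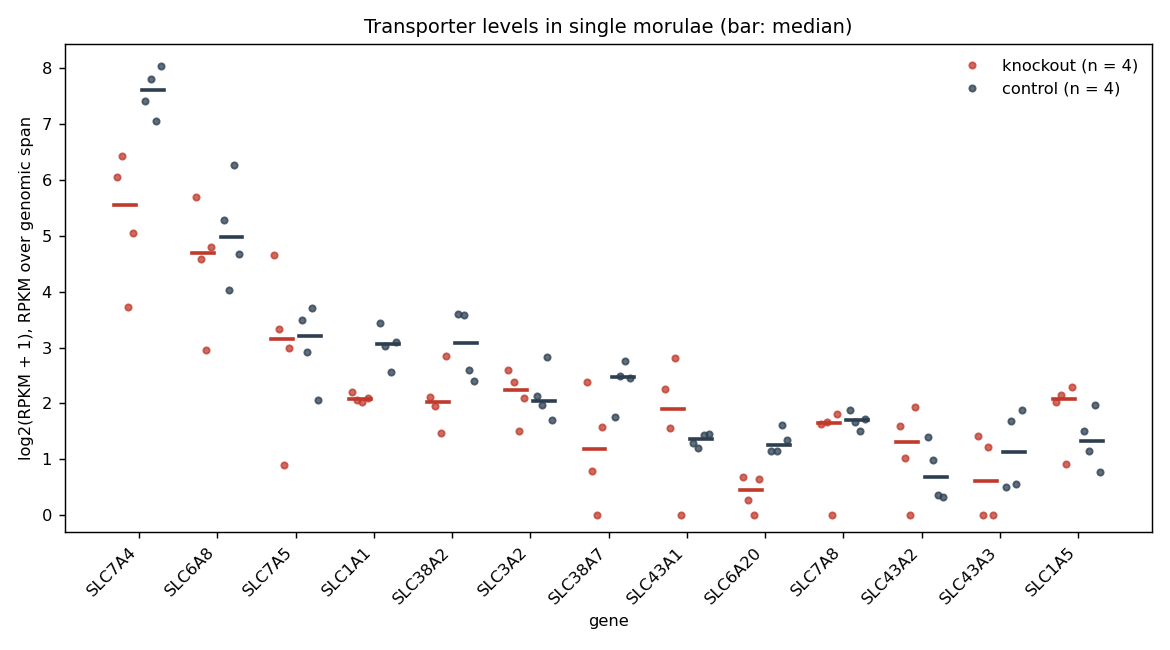
Level of the 13 tested transporters in each morula as log2(RPKM + 1), with 4 knockouts in red left of 4 controls in dark; bars are medians, and genes are in the order of the blastocyst plot. Knockouts lie below all controls for SLC7A4, SLC1A1 and SLC6A20, and the groups overlap for the other 10. SLC6A20 passed the filter only through the 4 controls.

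For the other 10 tested transporters the groups of morulae overlapped. SLC1A5 had 3.05, 3.42, 0.881 and 3.89 RPKM in knockouts 1, 5, 21 and 49, against 1.85, 1.22, 2.92 and 0.712 RPKM in controls 39, 41, 54 and 73. Only knockout 21 was below a control here, and the change was 0.74 ± 0.56 (limma p = 0.216, adjusted p = 0.870). SLC7A5 had medians of 8.02 RPKM in knockouts and 8.39 RPKM in controls, with a fitted change of 0.82 ± 0.81. Its highest embryo was knockout 1 with 24.3 RPKM and its lowest was knockout 21 with 0.875 RPKM, from 1 read. SLC3A2 had medians of 3.75 RPKM in knockouts and 3.15 RPKM in controls, with a change of 0.30 ± 0.59. Without the sex term the changes of both LAT1 chains turned just below 0, to −0.074 for SLC7A5 and −0.0072 for SLC3A2.

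SLC38A2 had a median of 3.09 RPKM in knockout morulae and 8.01 RPKM in control morulae (change −0.73 ± 0.69), and SLC38A7 had 1.35 RPKM in knockouts and 4.57 RPKM in controls (change −0.81 ± 0.66). SLC43A2 had 1.54 RPKM in knockouts and 0.635 RPKM in controls (change 0.67 ± 0.52), and SLC43A1 had 2.87 RPKM in knockouts and 1.57 RPKM in controls (change 0.48 ± 0.70). SLC6A8 had medians of 24.8 RPKM in knockouts and 31.3 RPKM in controls, with a change of −0.033 ± 0.82. SLC7A8 had 2.10, 2.16 and 2.52 RPKM in knockouts 1, 5 and 49 and no read in knockout 21, and the controls had 1.83 to 2.71 RPKM. SLC43A3 had medians of 0.666 RPKM in knockouts and 1.35 RPKM in controls. None of these 7 was under 0.05 unadjusted.

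**Figure D4:**
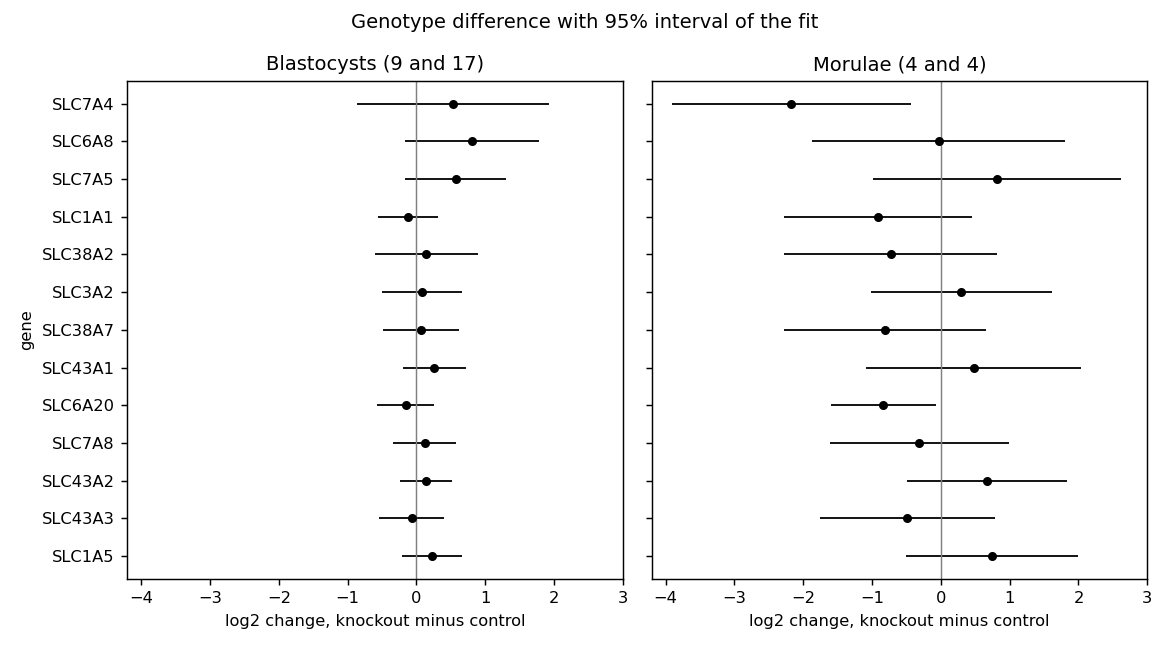
Log2 change between genotypes, knockout minus control on the log2(RPKM + 1) scale, for the 13 tested transporters in blastocysts (left, 9 and 17 embryos) and morulae (right, 4 and 4). Points are fitted changes and lines their 95% intervals. Only the intervals of SLC7A4 and SLC6A20 in morulae leave out 0, and no adjusted p was under 0.05.

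Without the filter, 6 of 38 transporters in morulae were under 0.05 unadjusted, against 9.75% of all genes, and none was called. All 6 were lower in knockouts. The share of all genes by direction is not given without the filter. With the filter 5.97% of all genes were under 0.05 and lower in knockouts, out of 6.87% under 0.05, so most such genes were lower. Beside SLC7A4 and SLC6A20 they were SLC38A11 with 1 read in knockouts and 42 in controls, SLC7A6 with 0 and 34, SLC7A9 with 0 and 3, and SLC36A2 with 0 and 2. The knockouts held 344068 reads and the controls 2249075. SLC38A11 was at 2.91 CPM in knockouts and 18.7 CPM in controls, with 32 of its 42 control reads in control 39. SLC36A2 had all its reads in 1 control, number 73, the only female control. The exact permutation p, which ignores sex, was 0.0571 for SLC38A11, 0.0286 for SLC7A6, 0.429 for SLC7A9 and higher for SLC36A2. SLC7A6 was also an untested gene with every knockout below every control. That separation was 0 reads against 2, 2 and 1 reads in controls 41, 54 and 73, with 29 in control 39. Without control 39 the controls lay below the limit that 0 reads allow in knockouts. SLC38A9 had 3 reads in knockouts (8.72 CPM) and 79 in controls (35.1 CPM), and SLC7A7 had 2 reads in knockouts (5.81 CPM) and 80 in controls (35.6 CPM). Control 39 gave 56 of the control reads of SLC38A9 and 65 of those of SLC7A7.

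Stages were set side by side without a test, because the 2 tables were normalised separately. In knockouts the ratio of the blastocyst to the morula median over the 13 transporters had a median of 1.30 in RPKM, from 0.350 for SLC1A5 to 5.88 for SLC7A4, and 11 of 13 were above 1. In controls it had a median of 1.21, from 0.529 for SLC6A8 to 2.22 for SLC43A2, and 8 of 13 were above 1. On CPM over the genes that both tables hold, the median ratio was 1.90 in knockouts and 1.21 in controls. The median of SLC7A4 in knockouts was 48.7 RPKM in morulae and 286 RPKM in blastocysts, and in controls 197 RPKM in morulae and 273 RPKM in blastocysts. SLC6A20 had 0.384 RPKM in knockout morulae and 1.03 RPKM in knockout blastocysts, and 1.39 RPKM in control morulae and 2.03 RPKM in control blastocysts. SLC1A1 had 3.25 RPKM in knockout morulae and 6.57 RPKM in knockout blastocysts, and 7.38 RPKM in control morulae and 8.91 RPKM in control blastocysts. These 3 genes were set out here because knockout and control morulae did not overlap, which favours the wider gap between genotypes seen in morulae. The median log2 change of all genes tested was −0.34 in morulae and 0.083 in blastocysts. Ratios between stages over all genes are not given here, so the counts above 1 cannot be set against them. A difference between stages was not tested.

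**Figure D5:**
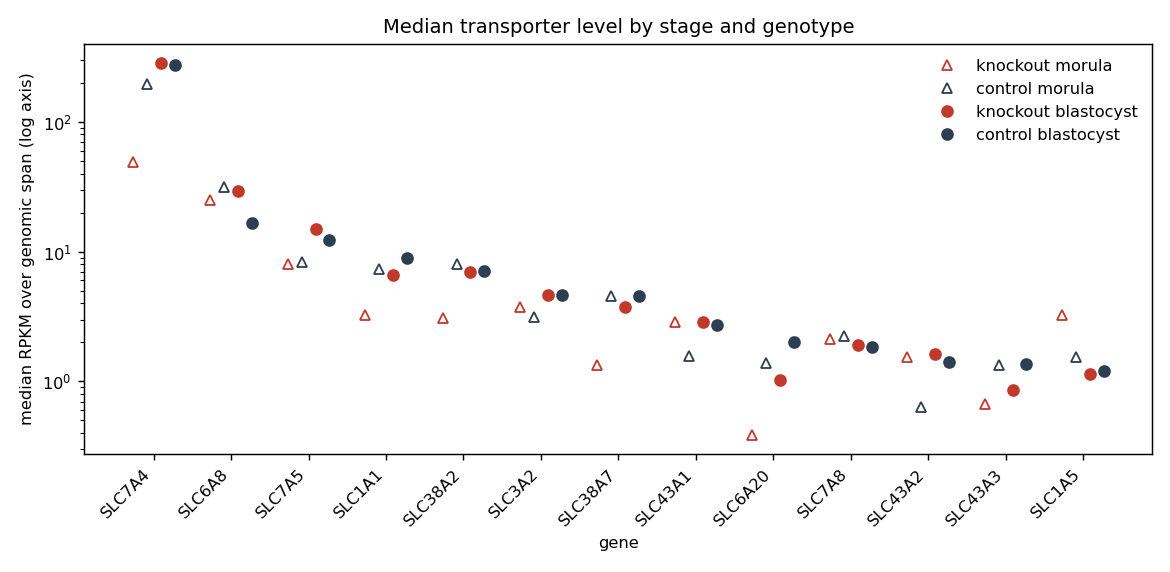
Median RPKM of the 13 tested transporters on a log axis, by stage and genotype: open triangles morulae, filled circles blastocysts, red knockout, dark control. Within each gene the marks run from knockout morulae to control blastocysts. The lowest mark is that of knockout morulae in 7 of 13 genes: SLC7A4, SLC7A5, SLC1A1, SLC38A2, SLC38A7, SLC6A20 and SLC43A3. For SLC7A5 it is 8.02 RPKM against 8.39 RPKM in control morulae. The share of all genes with this order is not given here, and 30.8% of all genes tested in morulae had a genotype change above 0.

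Males were compared with females over the 26 blastocysts, with genotype as a term. None of the 13 transporters was called (limma, adjusted), against 0% of all genes, and 2 of 13 were under 0.05 unadjusted, against 10.9% of all genes. SLC6A20 had a log2 difference, male minus female, of 0.47 ± 0.19 (limma p = 0.0214, adjusted p = 0.433), and SLC38A7 of 0.57 ± 0.26 (limma p = 0.0349, adjusted p = 0.433). The difference was above 0 for 10 of 13, against 79.8% of all genes, and its median was 0.19 over the 13 transporters and 0.26 over all genes. Control 12, a female at 0 RPKM for SLC6A20 and SLC38A7, was in the fit of all genes. Differences without it are not given here. Whether the genotype difference itself varied with sex gave no call among the 13, against 0% of all genes, and none under 0.05 unadjusted, against 1.5% of all genes. The smallest p there was 0.233 (limma), and only 2 knockout blastocysts were male.

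In the authors' deposited table, 0 of 55 transporters in blastocysts and 0 of 38 in morulae had an FDR under 0.05, against 0.0813% and 0.181% of all genes. For blastocysts the authors' deposited table gave a p under 0.05 to 5 of 55, against 7.71% of all genes, and these were SLC3A1, SLC38A1, SLC7A2, SLC6A9 and SLC7A1. For morulae the authors' deposited table had 3 of 38 under 0.05, against 5.77% of all genes. They were SLC6A20 with a log2 fold change of −1.88, SLC7A4 with −1.99 and SLC38A11.

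Genes that sense or answer amino acid supply were looked at beside the carriers. Of the genes of mTORC1 and its amino acid sensors, 16 were tested in blastocysts, and 0 were called, against 0% of all genes. Of the 16, 11 had changes above 0, against 62.3% of all genes, and the median was 0.21 against 0.083 for all genes. SESN2, the leucine sensor, averaged 2.21 ± 1.45 RPKM (SD, n = 9) in knockout blastocysts and 1.29 ± 0.636 RPKM (SD, n = 17) in control blastocysts. Its change was 0.41 ± 0.22 (limma p = 0.0738, adjusted p = 0.994), and TSC2, a brake on mTORC1, had a change of 0.27 ± 0.16. In morulae 11 were tested and 0 called, against 0% of all genes. Of the 11, 3 were above 0, against 30.8% of all genes, and the median was −0.74 against −0.34 for all genes. The smallest p were those of LAMTOR5 and EIF4EBP1. Of the amino acid response genes that follow GCN2 and ATF4, 16 were tested in blastocysts (0 called, 8 above 0) and 9 in morulae (0 called, 3 above 0, median −0.61). Among all genes 0% were called at each stage, and 62.3% were above 0 in blastocysts and 30.8% in morulae. PYCR1, an enzyme of proline synthesis, had a change of 1.10 ± 0.53 in blastocysts (limma p = 0.0486, adjusted p = 0.994). For SESN2, TSC2 and PYCR1 the lowest control blastocyst was at 0 RPKM, and for PYCR1 the lowest knockout was too. Control 12 was in these fits, and values without that library are not given here. ATF4 itself had a fitted change of 0.97 ± 0.67 in morulae, while its mean was 67.8 RPKM in knockouts and 69.1 RPKM in controls. NUPR1 had one of −2.37 ± 1.84, while its mean was 111 RPKM in knockouts and 67.03 RPKM in controls. Its highest knockout was at 422 RPKM, and its medians were 11.5 RPKM in knockouts and 66.6 RPKM in controls. For ATF4 and NUPR1 the sign of the fit with sex as a term was opposite to that of the means. For NUPR1 it was the same as that of the medians.

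Of carriers of amino acids or peptides outside the 7 families, 6 were tested at each stage and 0 called, against 0% of all genes. Changes were above 0 for 4 in blastocysts, against 62.3% of all genes, and for 2 in morulae, against 30.8%. SLC25A38, the mitochondrial glycine carrier, averaged 1.59 ± 0.568 RPKM (SD, n = 9) in knockout blastocysts and 1.02 ± 0.584 RPKM (SD, n = 17) in control blastocysts. The change was 0.45 ± 0.19 (limma p = 0.0241, adjusted p = 0.994). CTNS, which exports cystine from the lysosome, averaged 0.500 ± 0.762 RPKM (SD, n = 4) in knockout morulae and 2.24 ± 0.892 RPKM (SD, n = 4) in control morulae. The change was −1.24 ± 0.48 (limma p = 0.0298, adjusted p = 0.647). SLC15A4, a peptide and histidine carrier of the lysosome, had changes of 0.35 ± 0.27 in blastocysts and −0.33 ± 0.54 in morulae.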

How the data were processed

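Polyadenylated RNA of 34 single bovine embryos was sequenced from stranded libraries, per the labels' protocols; the submitters' processing notes name FastQC, featureCounts, edgeR and ARS-UCD1.2. The authors deposited RPKM per gene and embryo, with their own log2 fold change, p-value and FDR per gene. The morula table names no unit, and RPKM was inferred from its values. In both tables values are whole reads over the gene's genomic span and an effective library size; reads came out whole, within 0.01, for 100% of genes in every embryo. How reads on overlapping genes were counted is not given in the sources used here. No column lacked a sample (0 unused columns).

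Each embryo was 1 replicate; the labels do not say whether embryos came from separate collections or parents, so p-values measure the spread between these embryos. Genotype, stage and sex came from titles; control blastocyst 72 is male in its title and female in its column name, and the title was used. Log2(RPKM + 1) values were fitted by limma-trend with sex as a term and robust moderation, in limma 3.58.1 under R 4.3.3. Tests were two-sided and adjusted by Benjamini-Hochberg over all genes with at least 1 RPKM in at least 9 blastocysts or 4 morulae. Fold changes on this scale understate low genes, and CPM are recovered reads scaled to a common library size of 1000000. The code was tested on simulated data.

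The members, roles and lists were chosen with earlier results of these data known. Named were the 8 tested members with the smallest p per genotype comparison, the 10 highest by RPKM per stage, SLC3A2 and SLC7A5, and 2 genes per context list. No coding lengths were at hand, so genes were ordered by RPKM. Marker sums of other cell types were low in most embryos: the medians of cumulus, leukocyte and oocyte markers were at most 0.936 RPKM in every group, those of the oviduct and uterine list at most 5.14 RPKM and of the erythrocyte list at most 10.3 RPKM. Expected numbers at 43679 reads, leaving 2 blastocysts out of the detection counts and pooled CPM, and correlations within genotypes, were chosen after seeing the data.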

Additional observations from a re-analysis of the deposited data

Results flagged for a closer look

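Of 39 groups checked for an embryo far from the rest, 3 were flagged. Chance flags about 1 in 20, so 3 of 39 is near the number that chance gives. SLC7A8 had 3.79 RPKM in knockout blastocyst 3, where the other 8 knockout blastocysts had 1.57 to 2.40 RPKM. SLC38A2 had 15.8 RPKM in knockout blastocyst 75, where the others had 5.32 to 10.3 RPKM, and 1 control blastocyst was almost as high at 15.7 RPKM. SLC7A8 had 0 reads, or 0 RPKM, in knockout morula 21, where the other knockout morulae had 2.10 to 2.52 RPKM. That library had 33 transporter reads in all, and its low number of genes was not tested as a source of the 0.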

How the results depend on the processing

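No tested transporter was called under any of the settings tried, for genotype in blastocysts or morulae or for sex. The smallest adjusted p of any setting was 0.802 in blastocysts and 0.208 in morulae (SLC7A4 without the sex term). Over all genes in morulae 0 were called as reported, 44 with a pseudocount of 0.1, 33 without the sex term and 1 without knockouts 21 and 49; the cause was not tested. Quantile scaling brought the median change of all genes in morulae to 0.048, where it was −0.34 as reported, and SLC7A4 was then at −2.06. Some changes turned their sign. In blastocysts these were −0.019 (SLC38A7) and −0.0091 (SLC3A2) with quantile scaling, −0.11 (SLC38A7) without the sex term, 0.34 (SLC43A3) and 0.26 (SLC6A20) with voom on recovered reads, −0.056 (SLC38A2) in females only, and 0.060 (SLC43A3) and −0.055 (SLC38A7) in libraries of at least 200000 reads. With quality weights per embryo they were −0.21 (SLC7A8), −0.16 (SLC7A4), −0.16 (SLC38A7), −0.056 (SLC43A2), −0.10 (SLC3A2) and −0.26 (SLC38A2). Without control 12 and knockout 57 they were −0.0089 (SLC7A8), −0.047 (SLC7A4), −0.20 (SLC38A7), −0.029 (SLC43A2), −0.10 (SLC3A2) and −0.18 (SLC38A2). In morulae SLC6A8 was at 0.18 with median ratio scaling, 0.16 with quantile scaling, 0.21 with quality weights and 0.26 without knockouts 21 and 49. Quantile scaling gave 0.045 for SLC7A8 and 0.076 for SLC43A3, and no sex term gave −0.074 for SLC7A5 and −0.0072 for SLC3A2. The cause of these turns was not tested. The filter left no value for SLC43A3 in female blastocysts, or for SLC6A20 and SLC43A2 in morulae under median ratio scaling.

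Leaving out each embryo in turn, blastocyst changes ran from −0.028 to 0.18 for SLC7A8, −0.15 to 0.028 for SLC43A3, −0.17 to 0.68 for SLC7A4, −0.12 to 0.14 for SLC38A7, −0.14 to 0.18 for SLC3A2 and −0.15 to 0.25 for SLC38A2. In morulae they ran from −1.48 to 0.50 for SLC43A3, −1.68 to 0.047 for SLC38A7 and −0.56 to 0.50 for SLC6A8. SLC7A4 in morulae stayed below 0, from −2.96 to −1.38, as did SLC6A20, from −1.04 to −0.63, and SLC1A1, from −1.03 to −0.80. No paired analysis was possible because embryo numbers are unique and the groups share none. Of the transporters, 42 of 55 in blastocysts and 25 of 38 in morulae did not reach the RPKM filter, which also leaves out genes with long spans, and 4 embryos against 4 allow no exact p below 0.0286.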
